A study of Mus musculus with 48 samples.

Results

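The mouse mitochondrial genome carries 37 genes, and every row of the deposited tables whose symbol starts with mt- was taken as a member, which gave 37 of 55335 gene rows in each of 4 tables. They comprise 13 mRNA genes, 22 tRNA genes and 2 rRNA genes. Of the tRNA genes 14 lie on the plus strand of the reference and 8 on the minus strand, and all mRNA genes but 1, mt-Nd6, lie on the plus strand. The libraries analysed here came from osteocyte-like cells or from bulk bone. The study concerned osteocytes, which live within mineralized bone, under mitochondrial stress and in aging, and profiled poly(A)-selected RNA. Of its 48 samples in 16 groups, 27 libraries in 9 groups of 3 had values here, and the other 21 samples were not analysed here.

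MLO-Y4 cells, an osteocyte-like mouse line of C57BL/6J wild-type origin per the labels, made up 6 groups. In the first experiment they received no ADP or 2 µM ADP for 2 h. In the second they received vehicle (DMSO) or oligomycin A for 1 h, and other MLO-Y4 cells then received the supernatant of either culture for 2 h. The protocol gives 50 µM as the working concentration of oligomycin A. One label field gives the stock concentration instead and names the drug for vehicle samples too, so groups follow the titles. Whether the drug was removed from the supernatant is not stated. Old bone was femoral and tibial cortical bone of wild-type C57BL/6J mice aged 18 months, untreated. Young bone was long and parietal bone fragments of wild-type C57BL/6J mice aged 1 month, taken 48 h after transfer of medium or as control, and the labels do not name the donor of that medium. Nothing in the labels states that the 3 replicates of a group came from different cultures or animals, so p-values cover only the spread among them, which could be technical.

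Mitochondrial DNA is transcribed from each strand as a long precursor that runs through many genes. In most places an mRNA or rRNA is flanked by tRNAs, and RNase P and the nuclease ELAC2 cut at the ends of the tRNAs to set the other transcripts free. The mRNAs encode subunits of respiratory complexes I, III and IV and of ATP synthase, the enzyme that oligomycin A blocks. The 2 rRNAs and 22 tRNAs serve the ribosomes that translate them, and most of the mRNAs and the rRNAs carry short A tails. Mature mitochondrial tRNAs carry the ending CCA instead, so the amount that poly(A) selection retains is no measure of the mature tRNA. Reads from a mature tRNA and from a precursor that still holds it cannot be told apart in these tables.

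The stretches below hold 7 of the tRNA genes that were called in a comparison, read from GENCODE M21 transcripts (GRCm38), 5′ to 3′ on the strand of the gene. They show how closely the tRNA genes abut the mRNA genes. In the first, chrM:2646-2780 (plus strand), capitals mark mt-Tl1, the tRNA for leucine codons of the UUR family, between the end of mt-Rnr2 and the start of mt-Nd1.
mt-Tl1: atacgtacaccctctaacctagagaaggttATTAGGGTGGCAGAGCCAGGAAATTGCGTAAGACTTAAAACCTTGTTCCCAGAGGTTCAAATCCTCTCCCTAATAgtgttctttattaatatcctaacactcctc
In chrM:3845-3943 (plus strand) capitals mark mt-Tm, the methionine tRNA, and the start of mt-Nd2 follows with no base between.
mt-Tm: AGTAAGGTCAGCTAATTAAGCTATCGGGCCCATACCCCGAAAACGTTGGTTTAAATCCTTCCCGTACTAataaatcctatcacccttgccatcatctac
In chrM:11546-11771 (plus strand) capitals mark mt-Ts2, a serine tRNA, between mt-Th (histidine) and mt-Tl2 (leucine codons of the CUN family). The start of mt-Nd5 closes the stretch.
mt-Th, mt-Ts2, mt-Tl2: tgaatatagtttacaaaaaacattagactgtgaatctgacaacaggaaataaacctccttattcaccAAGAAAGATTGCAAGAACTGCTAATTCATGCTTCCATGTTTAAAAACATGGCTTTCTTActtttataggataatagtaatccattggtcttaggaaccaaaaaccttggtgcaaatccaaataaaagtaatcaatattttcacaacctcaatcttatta
In chrM:14041-14139, given on the minus strand, capitals mark mt-Te, the glutamate tRNA, before the start of mt-Nd6.
mt-Te: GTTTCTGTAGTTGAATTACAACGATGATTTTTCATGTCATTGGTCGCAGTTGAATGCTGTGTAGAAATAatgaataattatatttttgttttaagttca
The lysine tRNA mt-Tk, chrM:7700-7764 (plus strand), is given whole in capitals.
mt-Tk: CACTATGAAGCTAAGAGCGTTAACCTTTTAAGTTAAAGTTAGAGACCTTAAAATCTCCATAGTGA
In chrM:15259-15355 (plus strand) capitals mark mt-Tt, the threonine tRNA, after the end of mt-Cytb.
mt-Tt: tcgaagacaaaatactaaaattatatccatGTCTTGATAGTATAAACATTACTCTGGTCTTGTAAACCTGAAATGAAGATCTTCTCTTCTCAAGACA

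Another 2 stretches bear on how the values can be read. The genes mt-Atp8 and mt-Atp6, both for ATP synthase subunits, share 43 bases, in capitals in chrM:7915-7981 (plus strand).
mt-Atp8 and mt-Atp6: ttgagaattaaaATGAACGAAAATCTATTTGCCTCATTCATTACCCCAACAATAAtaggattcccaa
At the end of mt-Co3, chrM:9378-9390 (plus strand), the gene stops at the first base of its stop codon, in capitals.
mt-Co3 end: tgatgaggatctT
In 10 of the 13 mRNA genes the annotated sequence ends in a complete stop codon, and in mt-Co3, mt-Nd4 and mt-Cytb it ends in a single T, which the A tail completes in the mature mRNA. mt-Nd4l and mt-Nd4 share 7 bases. The sources used here do not give how fragments spanning 2 genes were assigned or whether strand was used, so values of abutting, overlapping or opposite-strand neighbours may hold each other's fragments.

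Values are FPKM, fragments scaled to gene length and sequencing depth, so levels of different genes are given per length. The length used for short genes is not stated, and the FPKM of tRNA genes (59 to 75 bases) and of mt-Atp8 (204 bases) relative to longer genes depend on it. The depth estimated from steps in low values in M fragments (M, 10 to the power of 6) was 15 to 25.4 for MLO-Y4 libraries. For old bone it was 29.3 to 33.6 M, for young bone 1.62 to 6.46 M, both rough estimates. On that scale 287 of the 594 tRNA values rested on at least 10 fragments, 252 on 0.5 to 10, and 42 lay above 0 but below 0.5 of a fragment. The 594 include 66 values of old bone and 132 of young bone, whose depths are less certain. In vehicle replicate 2 of the oligomycin A experiment, genes resembling nuclear rRNA and 7S RNA held 20.2% of summed FPKM, against at most 0.357% in the other 11 libraries of that experiment. The osteocyte markers Dmp1, Mepe and Fgf23 had at most 0.134 FPKM in the 18 MLO-Y4 libraries and Sost was listed at 0 in all of them, while Pdpn had 151 to 290.0 and Phex 7.04 to 12.8 FPKM. In old bone the 5 erythroid markers summed to 356300 to 378800 FPKM and the 7 osteocyte markers to 39.7 to 206, and its protocol mentions harvest with nonosseous tissue including marrow.

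Mitochondrial genes held 8.82% to 12% of summed FPKM in MLO-Y4 cells, 3.65% to 4.24% in old bone. Young bone controls had 0.658% to 0.723%. The mRNAs held 7.94% to 11.6% in MLO-Y4 cells and 3.12% to 3.60% in old bone. In the MLO-Y4 groups the mRNA with the highest mean was mt-Co1, the catalytic subunit of complex IV, at 5640.3, 5436 and 5465 FPKM without ADP and 6178, 5873 and 6658 FPKM with vehicle. mt-Atp8 came second in these 2 groups, at 4293, 3955 and 4048 and 3833, 3587 and 4105 FPKM, and its libraries did not overlap with those of mt-Co1. The lowest was mt-Nd3, a small complex I subunit, at 239, 239 and 246 FPKM without ADP and 204, 197 and 230.1 FPKM with vehicle. These 2 mRNAs come from the same plus-strand precursor. mt-Nd6, the complex I subunit of the minus strand, ranked second lowest at 1072, 1002 and 939.9 and 940.1, 869.6 and 1067 FPKM, with no overlap with mt-Nd3. mt-Cytb, the complex III subunit, had 3015, 2952 and 3241 FPKM with vehicle and overlapped with mt-Atp6 at 2875, 2824 and 3179.9 FPKM.

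Old bone showed another order, set within its own table. mt-Atp8 was highest at 6099, 5761 and 6437 FPKM, above mt-Co3, a complex IV subunit, at 5002, 3959.6 and 4726 FPKM, with no overlap. mt-Co1 at 3306, 3167 and 3365 FPKM overlapped with mt-Cytb at 3120.5, 2719 and 3173 FPKM. The lowest pair, mt-Nd6 at 205, 186 and 216 and mt-Nd3 at 253, 156 and 240.4 FPKM, overlapped. As a share of the 13 mRNAs' summed FPKM, mt-Nd6 held 0.710% to 0.787% in old bone and 3.06% to 3.37% in MLO-Y4 cells without ADP, and mt-Co3 15.1% to 19.2% and 6.86% to 6.90%. The tables were normalized separately, tissue and cell culture differ in all else too, and no test was made between them. A tails were not measured, so how much of each mRNA, mt-Nd6 included, poly(A) selection retained is not known. mt-Atp6 had 1163, 4552 and 5283 FPKM in old bone, so replicate 1 stood apart, with a ratio to mt-Atp8 of 0.191 against 0.79 and 0.821 in the other libraries. This ratio was 0.747 to 0.856 in all 18 MLO-Y4 libraries and 1.10 to 1.28 in the 6 young bone libraries.

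**Figure D1:**
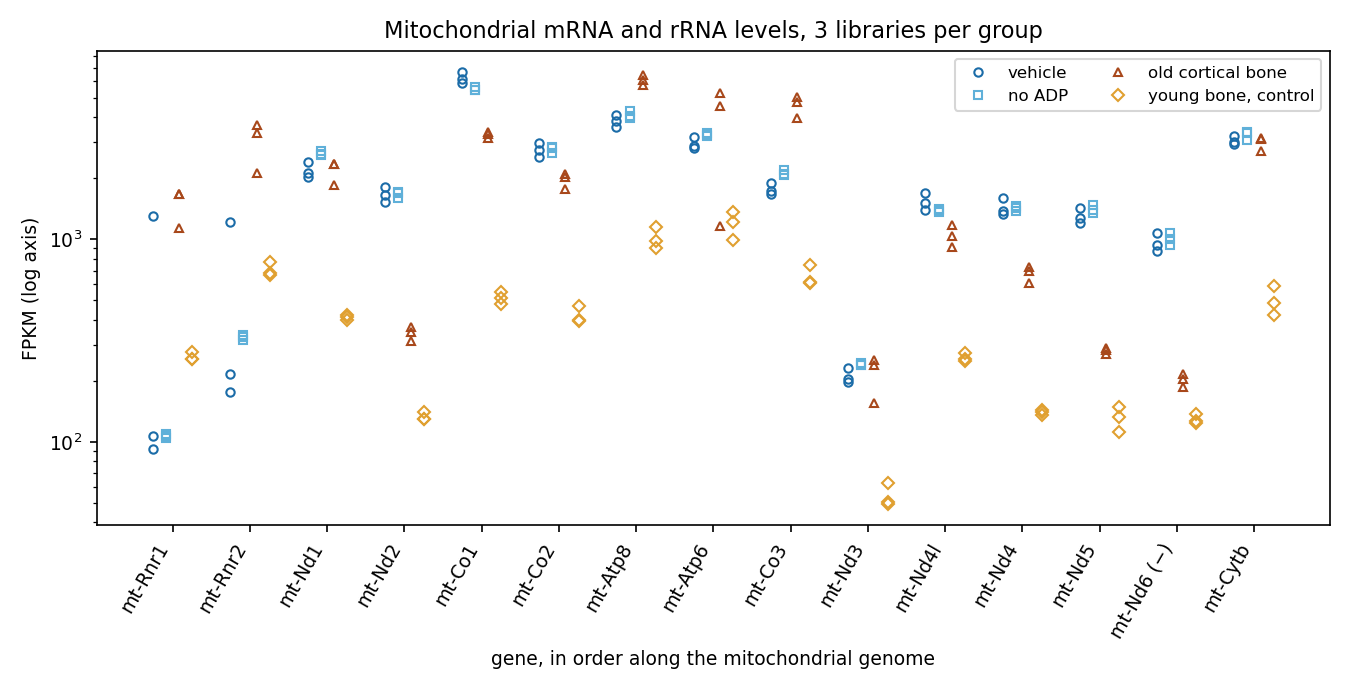
FPKM (log axis) of the 2 rRNA and 13 mRNA genes in genome order, 3 libraries per group, for vehicle and no-ADP MLO-Y4 cells, old bone and young bone controls; mt-Nd6 is on the minus strand. mt-Co1 is highest and mt-Nd3 lowest among mRNAs in both MLO-Y4 groups, mt-Atp8 is highest in old bone, and vehicle replicate 2 stands above the other vehicle libraries in both rRNA genes.

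Most tRNA genes had lower FPKM than the mRNAs, with exceptions such as mt-Tl1, which lay above mt-Nd3 without ADP. Their summed FPKM was 1.96% to 2.15% of the summed mRNA FPKM with vehicle, 2.94% to 3.18% without ADP and 0.964% to 1.33% in old bone. mt-Tl1 was the highest tRNA without ADP at 329.6, 314 and 322 FPKM and with vehicle at 171, 174 and 207 FPKM, in both groups without overlap with mt-Te, the next. In old bone mt-Tl1 had 11.4, 20.4 and 11.4 FPKM and the highest was mt-Tp, the minus-strand proline tRNA that closes the gene order, at 87.3, 113 and 124 FPKM. mt-Tl1 FPKM were 11.8% to 12.5% of those of its neighbour mt-Nd1 in the ADP table, and 0.482% to 1.10% in old bone. At the low end, mt-Ts1, a serine tRNA opposite the end of mt-Co1, had 0.457, 0 and 0.153 FPKM without ADP, and mt-Ts2 had 0.0644, 0.0383 and 0 FPKM in old bone. Frequency of codons and tRNA level did not share an order at the top. The 13 mRNAs hold 3790 sense codons, of which mt-Tl2 reads 444 (11.7%), the most, and mt-Tl1 144 (3.80%).

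Without ADP mt-Rnr1 lay below all mRNAs and mt-Rnr2 between mt-Nd3 and mt-Nd6, while in old bone both lay within the range of the mRNAs. mt-Rnr1, the small subunit rRNA, had 104, 109 and 107 FPKM without ADP and 1672, 1129 and 1673 in old bone. mt-Rnr2, the large subunit rRNA, had 338, 317 and 329 and 3652, 2112 and 3354 FPKM. Spearman's rho between FPKM and start position along the plus strand was -0.38 for the 12 mRNA genes and 0.37 for the 14 tRNA genes with vehicle, -0.41 and 0.13 without ADP, -0.24 and -0.78 in old bone, and -0.22 and -0.45 in young bone controls. These describe genes of the same libraries, which are not independent replicates.

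Oligomycin A against vehicle asks what 1 h of ATP synthase inhibition does to these transcripts. Of the tested tRNA genes 7 of 13 on the plus strand and 1 of 6 on the minus strand fell, while no mRNA or rRNA passed the test. Of the 34 members with a mean of at least 1 FPKM over the 12 libraries, 8 were lower and 0 higher (limma, adjusted p below 0.05), all of them tRNA genes. Among all 11902 genes tested 1.63% were called lower, 3.71% higher and 5.34% in either direction. The 3 members below the filter, mt-Tv, mt-Tq and mt-Ts1, were not tested in this fit.

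mt-Tl1 had 171, 174 and 207 FPKM with vehicle and 36.3, 39.5 and 35.0 FPKM with oligomycin A. All treated libraries lay below all vehicle libraries, with means of 184 ± 20.2 and 36.9 ± 2.31 FPKM (SD, n = 3 each). The log2 fold change was -2.28 ± 0.08 (SE; limma adjusted p = 2.38e-08). Its estimated fragments were 207 to 234 per vehicle library and 44.5 to 53.5 per treated library. Relative to mt-Nd1, which begins at the base after it, mt-Tl1 FPKM went from 8.08%, 8.60% and 8.62% to 2.10%, 2.13% and 1.95%. This ratio within libraries does not depend on their scaling, and its groups did not overlap.

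The same separation of groups was seen in the other called tRNAs. mt-Tm had 11.7, 14.4 and 9.69 FPKM with vehicle and 3.13, 3.66 and 2.28 with oligomycin A, a log2 fold change of -1.68 (limma adjusted p = 0.000279). mt-Tl2 went from 35.0, 31.5 and 46.4 to 10.6, 16.1 and 9.94 FPKM, a log2 fold change of -1.56 (limma adjusted p = 0.000225). The FPKM of both leucine tRNA genes thus fell. mt-Th, which lies 2 genes before mt-Tl2, went from 49.5, 46.0 and 71.2 to 23.0, 32.4 and 23.1 FPKM, a log2 fold change of -1.05 (limma adjusted p = 0.00832). mt-Tk went from 4.72, 4.98 and 7.73 to 1.99, 2.24 and 1.54 FPKM, a log2 fold change of -1.20 (limma adjusted p = 0.00665). Few fragments carry the call of mt-Tk, an estimated 5.15 to 7.54 per vehicle and 2.03 to 2.19 per treated library, and treated libraries held 3.20 to 3.80 of mt-Tm.

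The remaining calls were smaller. mt-Tw, the tryptophan tRNA behind mt-Nd2, went from 5.17, 5.19 and 8.50 to 3.55, 2.96 and 2.56 FPKM (-0.83, limma adjusted p = 0.0241). mt-Tg, the glycine tRNA before mt-Nd3, went from 3.57, 2.43 and 2.78 to 1.46, 2.21 and 1.56 FPKM (-0.51, limma adjusted p = 0.0436). mt-Te, the only tRNA of the minus strand called in this fit, went from 126, 126 and 149 to 111, 102 and 99.8 FPKM (-0.35, limma adjusted p = 0.0404). The numbers in parentheses are log2 fold changes, and in all 3 genes the groups did not overlap. mt-Tw rested on an estimated 5.53 to 8.55 and 2.99 to 3.89 fragments per library, and mt-Tg on 2.63 to 4.29 and 1.63 to 2.26. Of the 19 alternatives tried, the calls of mt-Tl1, mt-Tm, mt-Tl2 and mt-Th held in all 19 and that of mt-Tk in all 18 that tested it. mt-Tw lost its call in 7 of 18, mt-Tg in 11 of 18 and mt-Te in 10 of 19, among them each rescaling of the libraries to one total. Among single libraries, mt-Tw lost it without vehicle replicate 3 or oligomycin A replicate 2 or 3, and mt-Tg without vehicle replicate 1 or 3 or oligomycin A replicate 1 or 3. mt-Te lost it without vehicle replicate 1 or 3 or any oligomycin A replicate. Without vehicle replicate 3, 5 members were called. Without vehicle replicate 2, 12 members were called, 11 lower and 1 higher.

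By strand, 7 of the 14 plus-strand tRNA genes (13 tested) and 1 of the 8 minus-strand ones (6 tested) were lower. Minus-strand mt-Tq, not tested in this fit, is described below. The summed plus-strand tRNA FPKM went from 291, 322 and 364 to 105, 128 and 99.2, without overlap. The minus-strand sum was 285, 242 and 328 with vehicle and 279, 283 and 262 with oligomycin A, so there the groups overlapped. Minus-strand mt-Ta, mt-Tn and mt-Tc, for alanine, asparagine and cysteine, had positive log2 fold changes of 0.28, 0.42 and 0.32 that did not pass (limma adjusted p = 0.364, 0.184 and 0.231). They lie in a cluster with mt-Ty, for tyrosine, at -0.10. mt-Tn had 49.6, 31.9 and 58.4 FPKM with vehicle and 60.1, 66.0 and 57.1 FPKM with oligomycin A, and vehicle replicate 2 was the lowest library.

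By position, 8 tRNA genes lie directly before an mRNA on their own strand, with at most 1 base between. They are mt-Tl1 before mt-Nd1, mt-Tm before mt-Nd2, mt-Td before mt-Co2, mt-Tk before mt-Atp8, mt-Tg before mt-Nd3, mt-Tr before mt-Nd4l, mt-Tl2 before mt-Nd5 and mt-Te before mt-Nd6. Of these 6 were lower and the median log2 fold change was -0.88. The other 2, mt-Td (aspartate) at -0.32 and mt-Tr (arginine) at -0.56, did not pass (limma adjusted p = 0.103 and 0.147). Of the other 14 tRNA genes 11 were tested, 2 (mt-Tw and mt-Th) were lower and the median was -0.10. This grouping was chosen after the values were seen, and the difference between the 2 sets was not tested.

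**Figure D2:**
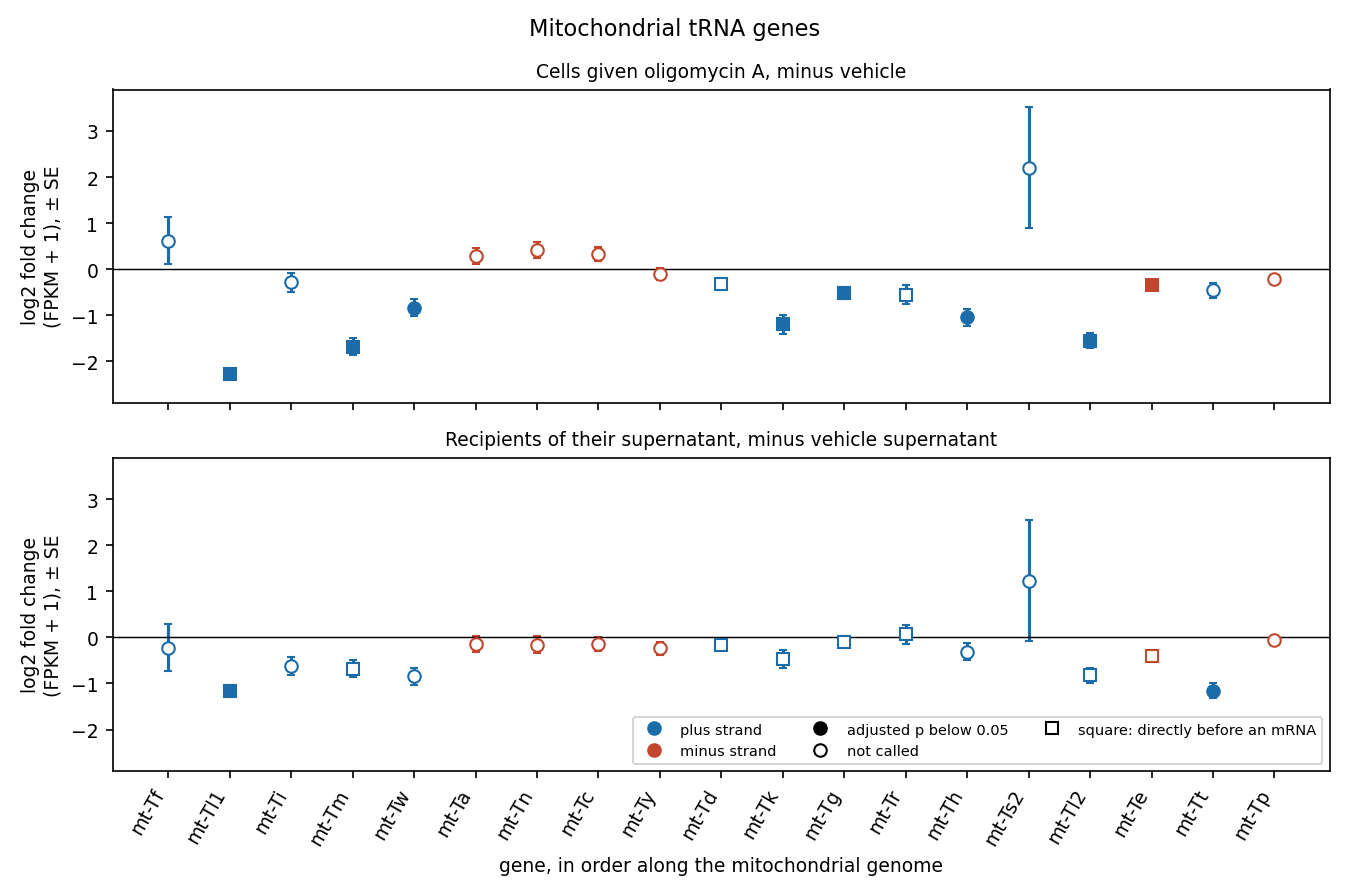
Log2 fold change of FPKM + 1 (± SE, n = 3 libraries per group) of the 19 tested tRNA genes in genome order, in treated cells (top) and recipients (bottom), with colour for strand, squares for tRNAs directly before an mRNA and filled symbols for adjusted p below 0.05. In treated cells the 8 filled symbols all lie below 0 and mt-Tl1 is lowest at -2.28; in recipients mt-Tl1 and mt-Tt are filled.

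mt-Ts2 values differed widely from library to library. It had 0.369, 28.8 and 0.392 FPKM with vehicle, 15.5, 21.5 and 14.0 with oligomycin A, 32.8, 0.333 and 41.0 with vehicle supernatant and 26.4, 26.9 and 30.7 with oligomycin A supernatant. In 3 of the 6 vehicle-type libraries it was below 0.4 FPKM, where its neighbours mt-Th and mt-Tl2 were present, and in the ADP table it was 0.210 to 0.240 FPKM in all 6 libraries. Its log2 fold changes of 2.20 ± 1.31 and 1.23 ± 1.31 (SE) did not pass (limma adjusted p = 0.355 and 0.928). mt-Tq, the glutamine tRNA of the minus strand, had 1.94, 0.987 and 3.07 FPKM with vehicle and 0.0199, 0 and 0 with oligomycin A. Its groups did not overlap, but its mean over the 12 libraries was below the filter. Of the alternatives 5 tested it and 4 called it lower, with log2 fold changes of -1.52 to -1.51 over the 5. These 4 were the fit on treated and vehicle libraries alone and the fits without 1 of the oligomycin A replicates. There, leaving out libraries brought its mean up to the filter. With no filter on low values it was not called.

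**Figure D3:**
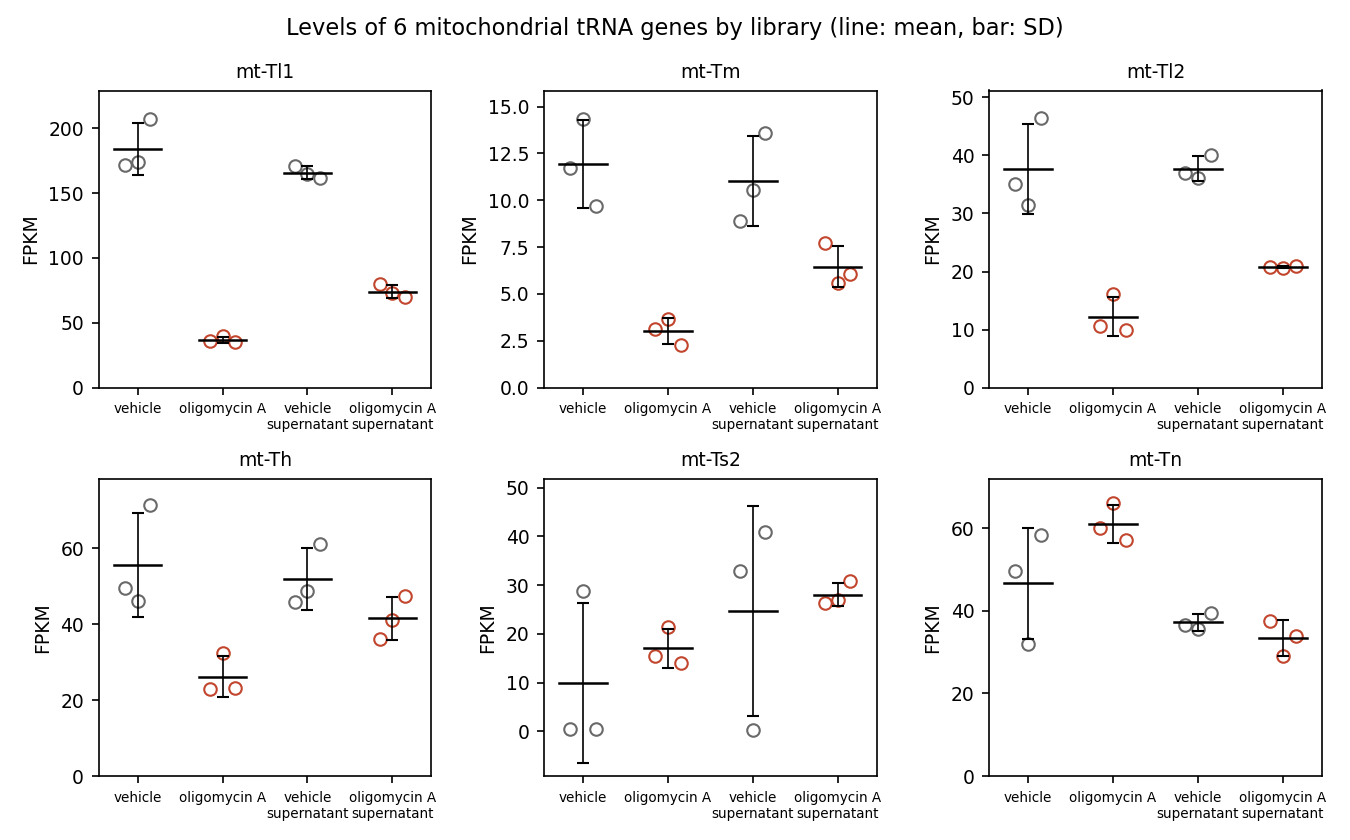
FPKM of 6 tRNA genes in each of the 12 libraries of the oligomycin A experiment, with replicates 1 to 3 from left to right in each group, mean (line) and SD (bar). mt-Tl1, mt-Tm, mt-Tl2 and mt-Th separate oligomycin A from vehicle without overlap, mt-Ts2 is near 0 in 3 vehicle-type libraries, and mt-Tn overlaps.

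The mRNAs moved little. Each of the 13 log2 fold changes was below 0, their median was -0.16 against -0.0037 over all genes tested, and 0 of 13 passed the test (limma, 10 at an unadjusted p below 0.05). Treated libraries lay below all vehicle libraries for 10 of 13 mRNAs (76.9%), and above them for 0, against 13.1% and 16.8% of all genes. With libraries set to one total the mRNA median was -0.0089 and that of all genes 0.12, and with quantile normalization the mRNA median turned to 0.04. The 7 complex I genes had a median of -0.19, the 3 complex IV genes of -0.14 and the 2 ATP synthase genes of -0.15. mt-Nd1 went from 2119.8, 2019 and 2406 to 1729, 1855 and 1798 FPKM, a log2 fold change of -0.28 ± 0.08 (SE; limma adjusted p = 0.063). mt-Nd2, another complex I subunit, stood at -0.25 (limma adjusted p = 0.0555). Both passed without vehicle replicate 2 (limma adjusted p = 0.0473 and 0.0304), and in both the groups did not overlap.

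The genes of the drug's target were among those with small differences. mt-Atp6 went from 2875, 2824 and 3179.9 to 2643, 2629.8 and 2643 FPKM, a log2 fold change of -0.16 (limma adjusted p = 0.0968). mt-Atp8 stood at -0.13 (limma adjusted p = 0.18). mt-Nd6 went from 940.1, 869.6 and 1067 to 868, 852 and 851 FPKM (-0.16, limma adjusted p = 0.216), and mt-Cytb stood at -0.13. mt-Co1 had 6111, 6079 and 6255 FPKM in treated cells, within the vehicle range, a log2 fold change of -0.02 ± 0.05 (SE; limma adjusted p = 0.866). As a share of the 13 mRNAs' summed FPKM it was 20.9% ± 0.199 with vehicle and 22.6% ± 0.267 with oligomycin A (SD, n = 3 each), without overlap. When libraries were scaled to the 13 mRNAs, a setting chosen after the data were seen, its log2 fold change was 0.12 (limma adjusted p = 0.0119).

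The rRNA result turned on a single library. mt-Rnr1 had 92.1, 1300.5 and 107 FPKM with vehicle and 162, 159 and 157 with oligomycin A, and mt-Rnr2 had 177, 1213 and 217 and 208, 219 and 194 FPKM. Vehicle replicate 2, the library with 20.2% of summed FPKM in genes resembling nuclear rRNA and 7S RNA, was far above the others in both. With it neither passed (-0.56 and -0.80 on the log2 scale, limma adjusted p = 0.706 and 0.407). Without it mt-Rnr1 was higher with oligomycin A by 0.67 on the log2 scale (limma adjusted p = 0.000734). The ratio of mt-Rnr1 to mt-Rnr2 FPKM was 0.521, 1.07 and 0.495 with vehicle and 0.778, 0.726 and 0.809 with oligomycin A.

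Recipients of the supernatants address whether the supernatant of treated cells, which may still hold the drug, moves the same transcripts in other cells. mt-Tl1 fell there as well, by a smaller amount, and mt-Tt was the only other call. Of 34 members tested 2 were lower and 0 higher, where 0.109% of the 11902 genes tested were called lower, 0.277% higher and 0.386% in either direction. mt-Tl1 had 171, 164 and 162 FPKM with vehicle supernatant and 79.7, 72.7 and 69.6 FPKM with oligomycin A supernatant. The groups did not overlap, and the log2 fold change was -1.15 ± 0.08 (SE; limma adjusted p = 0.000163). Relative to mt-Nd1 it went from 9.03%, 7.98% and 7.85% to 5.22%, 4.90% and 3.98%. Drug left in the supernatant and substances released by treated cells cannot be told apart here.

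mt-Tt had 6.12, 5.31 and 3.46 and 2.01, 1.32 and 1.59 FPKM, without overlap, a log2 fold change of -1.16 ± 0.17 (SE; limma adjusted p = 0.0116). It rested on 3.82 to 6.15 and 1.42 to 2.49 estimated fragments, and the call was lost in 4 of 18 alternatives, among them without vehicle supernatant replicate 2 or oligomycin A supernatant replicate 2 (1 call left in each). mt-Tl2 had 36.9, 36.0 and 40.1 and 20.8, 20.7 and 21 FPKM, without overlap, and did not pass (-0.82, limma adjusted p = 0.0707). mt-Tm, mt-Th and mt-Tk stood at -0.68, -0.31 and -0.46 (limma adjusted p = 0.21, 0.769 and 0.588). The plus-strand tRNA sum went from 323, 286 and 342 to 188, 181 and 190.2 FPKM, and the minus-strand sum from 262, 254 and 283 to 214, 211 and 233. Here both sums separated the groups.

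The mRNAs again lay below 0 in 13 of 13 cases, their median was -0.21 against -0.0039 over all genes, and 0 passed (limma, 10 at an unadjusted p below 0.05). For 10 of 13 (all lower) the groups did not overlap, against 6.49% of all genes lower and 6.65% higher. These were 7 of 7 complex I genes, 2 of 2 ATP synthase genes and mt-Cytb, with 0 of 3 complex IV genes. The complex I median was -0.27, the ATP synthase median -0.13 and the complex IV median -0.05. mt-Nd2 had the smallest p among them, at -0.35 ± 0.07 (SE; limma adjusted p = 0.0587), from 1448, 1541 and 1494 to 1136, 1116 and 1264 FPKM. mt-Nd3 stood at -0.38 and mt-Nd1 at -0.34 (limma adjusted p = 0.139 and 0.139). All 3 passed when oligomycin A supernatant replicate 3 was left out, which gave 5 calls. mt-Co1 stood at -0.05. With libraries set to one total, 13 of the 13 mRNAs stayed below 0 and their median was -0.19. With quantile normalization 9 of 13 lay below 0 and the median was -0.09. When libraries were rescaled to the 13 mRNAs, 8 lay below 0.

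In recipients neither rRNA passed the test. The spread used in this test came from all 12 libraries of the experiment, vehicle replicate 2 included. mt-Rnr1 had 85.5, 90.0 and 94.6 and then 107, 105 and 115 FPKM, while mt-Rnr2 had 176, 158 and 177 and then 138, 127 and 136 FPKM. Neither pair of groups overlapped, mt-Rnr1 being higher and mt-Rnr2 lower with oligomycin A supernatant, but neither difference passed (limma adjusted p = 0.979 and 0.963), and neither was called in any of the alternatives, the fit on recipient libraries alone included. Their ratio was 0.486, 0.572 and 0.535 with vehicle supernatant and 0.771, 0.826 and 0.848 with oligomycin A supernatant. The exact permutation test was not run on these ratios, since 3 libraries against 3 cannot reach the threshold.

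**Figure D4:**
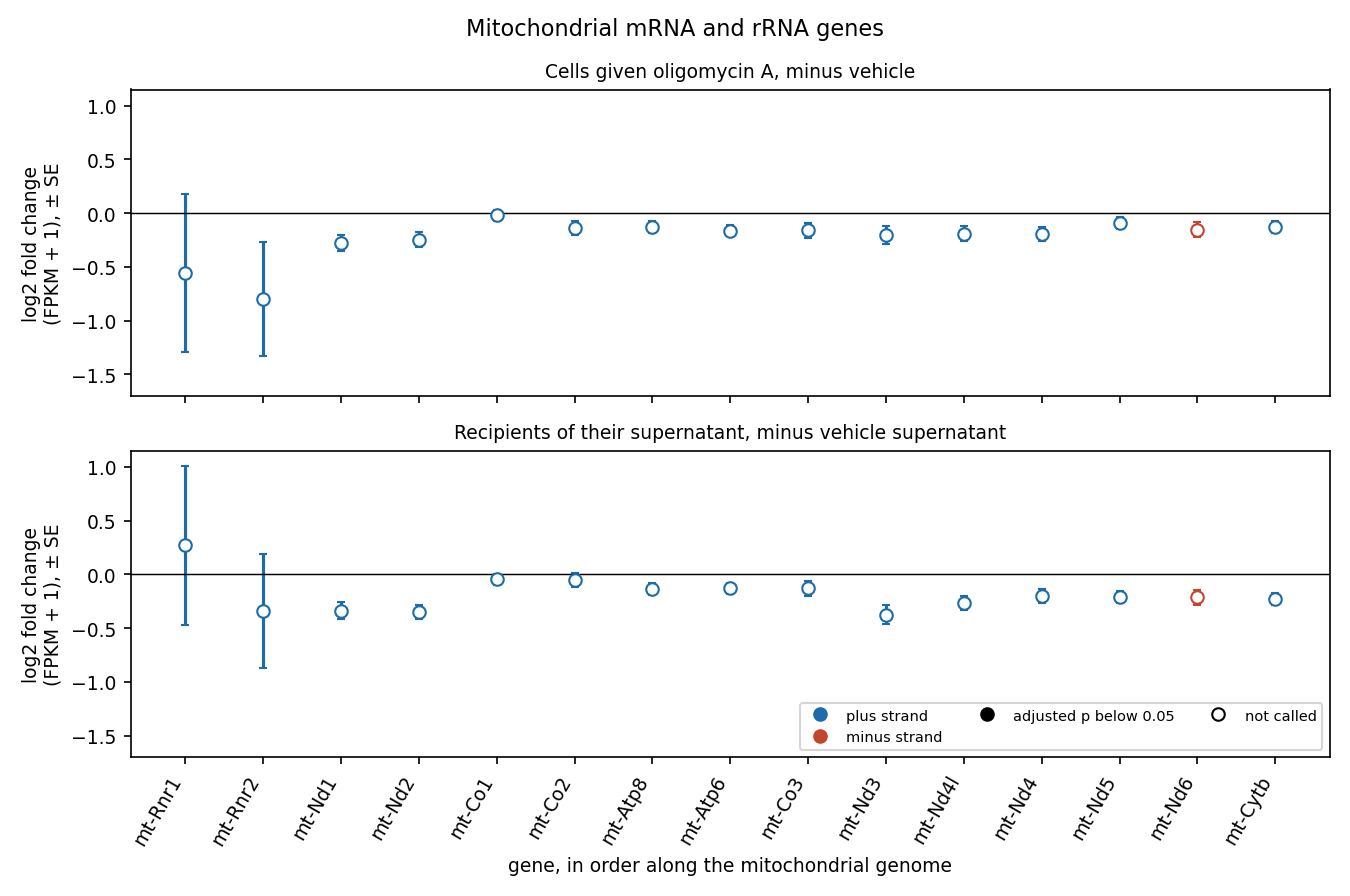
Log2 fold change of FPKM + 1 (± SE, n = 3 libraries per group) of the 2 rRNA and 13 mRNA genes in genome order, in treated cells (top) and recipients (bottom), with open symbols where the adjusted p was not below 0.05. All mRNA points lie below 0 in both panels, mt-Co1 nearest to it in treated cells, and the rRNA bars are wide. In both panels the SE comes from 1 fit of all 12 libraries, vehicle replicate 2 included.

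The response of recipients was set against that of treated cells as a difference of log2 fold changes in the same fit. It differed for 1 of 34 members, mt-Tl1, by 1.13 ± 0.11 (SE; limma adjusted p = 0.000504), where 0.361% of all genes were called lower, 0.084% higher and 0.445% in either direction. The fall in mt-Tl1 was thus larger in treated cells, which also had another exposure time. Whether recipients also met the drug is not known. For mt-Tm, mt-Tl2 and mt-Th the differences of 1.00, 0.74 and 0.73 did not pass (limma adjusted p = 0.155, 0.27 and 0.325). That of mt-Tt was -0.69 (limma adjusted p = 0.305).

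Recipients of vehicle supernatant were set against vehicle-treated cells, which compares 2 groups without the drug. They differ in handling, medium and exposure time (2 h against 1 h), and these cannot be told apart. Of 34 members 1 was lower, mt-Tp at -0.27 (limma adjusted p = 0.0478), from 28.4, 29.6 and 34.3 to 24.2, 24.8 and 26.8 FPKM, where 5.18% of all genes were called lower, 9.49% higher and 14.7% in either direction. The groups did not overlap for 2 members, both lower, against 12.6% of all genes lower and 21.6% higher. That call was lost in 11 of 19 alternatives, among them without either of vehicle replicates 2 and 3 or any vehicle supernatant replicate. mt-Tl1 stood at -0.15 and mt-Tl2 at 0.02 (limma adjusted p = 0.247 and 0.957). This comparison shares its vehicle libraries with the 2 above.

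Nuclear genes that serve these transcripts were counted from lists. In treated cells 0 of 19 tested genes of mitochondrial transcription and DNA maintenance, 0 of 38 of RNA processing, modification and decay, and 0 of 11 translation factors were called (limma, 3, 6 and 0 at an unadjusted p below 0.05), where 5.34% of all genes were. Of 15 mitochondrial aminoacyl-tRNA synthetases Mars2, which charges mt-Tm, was lower at -0.33 and Rars2, which charges mt-Tr, higher at 0.21 (limma adjusted p = 0.0266 and 0.0483). Of 78 mitochondrial ribosomal protein genes Mrpl12 and Mrps10 were lower at -0.27 and -0.28 (limma adjusted p = 0.042 for both). In recipients 0 genes of the 5 lists were called, where 0.386% of all genes were. In vehicle supernatant recipients against vehicle-treated cells, where 9.49% of all genes were called higher, 5 of 19 transcription and 12 of 38 processing genes were higher and 0 lower. These included Tfam, which packages the genome and starts transcription, at 0.55, Polrmt, the mitochondrial RNA polymerase, at 0.27, and Pus1, a pseudouridine synthase, at 0.50 (limma adjusted p = 0.0063, 0.0209 and 0.000435). Of the other lists 1 of 11 translation factors, 1 of 15 synthetases and 6 of 78 ribosomal protein genes were higher and 2 of the last lower, where 5.18% of all genes were lower. The 2 vehicle groups also differ in exposure time and medium. With ADP 0 genes of the 5 lists were called, where 0.0603% of all genes were, and in young bone, where 0.0243% were, 1 was, Lars2, which charges both leucine tRNAs, higher by 5.12 on the log2 scale (limma adjusted p = 0.000174). Lars2 had 265, 0.883 and 0.812 FPKM in controls and 242, 501 and 312 after transfer, so the groups overlapped. Control replicate 1 lay within the range of the transfer libraries, and control replicates 2 and 3 lay far below it. Lars2 was also counted here among the genes resembling nuclear rRNA, whose share of summed FPKM is given above. Whether the fragments counted for Lars2 came from the synthetase mRNA was not tested. Its call therefore cannot be read as a change of that mRNA. The call of Lars2 was lost in 13 of 18 alternatives, among them without control replicate 2 or 3 or transfer replicate 1 or 3. The 13 mitochondrial mRNAs had a median of -0.02 between the vehicle groups, which turned to 0.10 with libraries set to one total and 0.04 with quantile normalization.

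ADP at 2 µM asks whether the nucleotide, a signal at purinergic receptors, changes these transcripts in MLO-Y4 cells. Of 35 members tested 0 were called (limma, 5 at an unadjusted p below 0.05), where 0.0603% of 11604 genes were (0.00862% lower and 0.0517% higher). The groups did not overlap for 1 member lower (mt-Ti) and 2 higher (mt-Nd3 and mt-Tq), against 5.27% and 5.33% of all genes. mt-Tl1 had 329.6, 314 and 322 FPKM without and 304, 311 and 315 FPKM with ADP, a log2 fold change of -0.05 ± 0.03 (SE; limma adjusted p = 0.847). The groups overlapped. The smallest p was that of mt-Nd3, from 239, 239 and 246 to 263, 299.6 and 269 FPKM without overlap, at 0.20 (limma adjusted p = 0.83). mt-Tq stood at 1.04, from 0.659, 1.27 and 2.20 to 5.18, 3.92 and 2.44 FPKM, and mt-Ti at -0.42 (limma adjusted p = 0.83 and 0.842). The 13 mRNAs had a median of -0.03 and the 20 tested tRNAs of 0.14.

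In young bone the 3 transfer libraries differed widely among themselves in their mitochondrial transcripts, and no member passed the test. Mitochondrial genes held 0.658% to 0.723% of summed FPKM in the 3 controls and 2.05%, 8.37% and 0.688% in the 3 transfer libraries. Genes resembling satellite repeats held 73.8% to 80.5% in the controls and 56.6%, 5.04% and 81.6% in the transfer libraries, so the mitochondrial share was highest where this one was lowest, and its part in the result was not tested. Erythroid markers summed to 3836 to 8061 FPKM in controls and 10500, 20860 and 12070 after transfer, and osteocyte markers to 448 to 1017 and 596, 1709 and 291 FPKM, with none of the 7 osteocyte or 5 erythroid markers at 0 in all libraries. In bulk tissue fewer cells of a type and less RNA per cell cannot be told apart.

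mt-Co1 had 551, 481 and 515 FPKM in controls and 1091, 4386 and 592 after transfer. Transfer replicate 2 was the highest and replicate 3 lay near the controls, although the groups did not overlap. Of 37 members tested 0 were called (limma, 1 at an unadjusted p below 0.05), where 0.0243% of 16438 genes were (0.0122% lower and 0.0122% higher). The mRNA median was 1.21 against 0.45 over all genes, 0.57 against 0.29 without transfer replicate 2, and -0.05 against -0.40 when scaled to the 13 mRNAs. For 9 members (24.3%) all transfer libraries lay above all controls and for 0 below, against 3.49% and 0.596% of all genes. mt-Cytb stood at 1.54 ± 0.80 (SE; limma adjusted p = 0.9), and mt-Tt at 1.53 ± 0.76 (limma adjusted p = 0.9). A simulation with the spread of these libraries, drawn separately for each gene, recovered 0% of genes given a log2 change of 1. It did not model shifts that many genes of a library share. The lack of calls therefore does not show that the members were unchanged. The summed tRNA FPKM was 7.51% to 10.7% of the mRNA sum in controls and 11.1%, 2.99% and 6.32% after transfer, transfer replicate 2 being the lowest. mt-Ti, for isoleucine, had the highest mean among tRNAs there at 55.3, 59.6 and 129 FPKM in controls, followed with overlap by mt-Tq at 49.2, 63.7 and 61.4 FPKM.

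**Figure D5:**
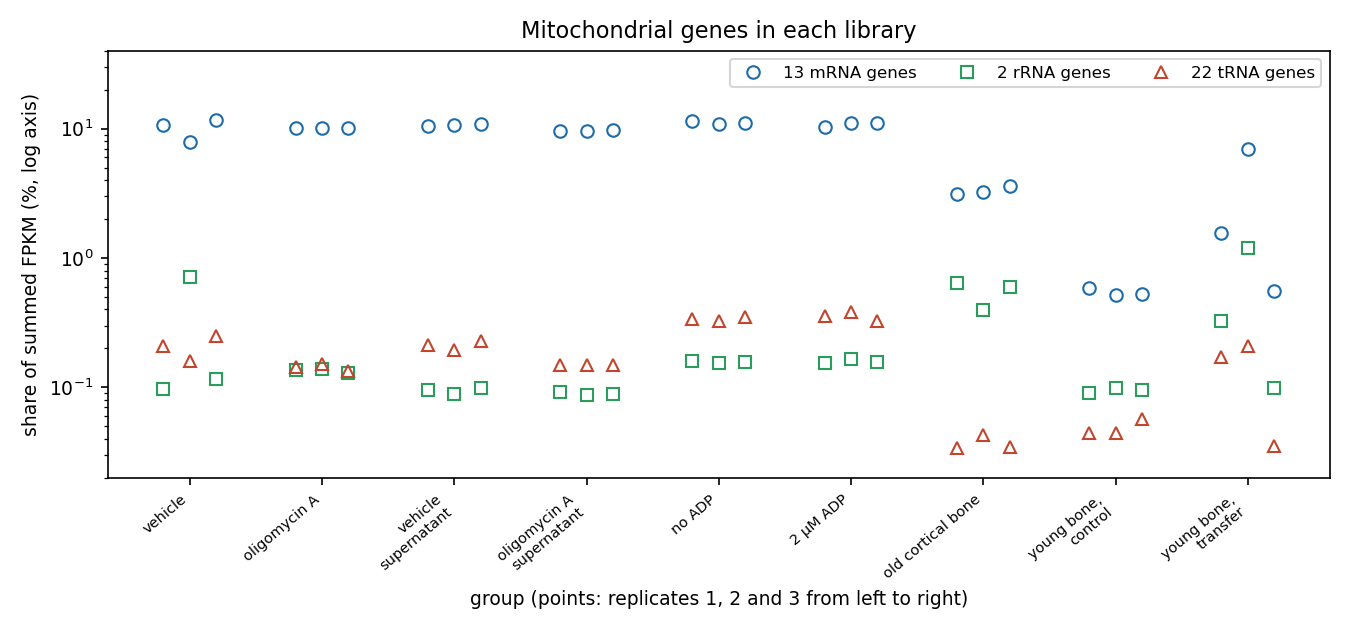
Share of summed FPKM (%, log axis) held by the 13 mRNA, 2 rRNA and 22 tRNA genes in each of the 27 libraries, replicates 1 to 3 from left to right in each group. The mRNA share lies near 10% in MLO-Y4 cells (7.94% in vehicle replicate 2), the rRNA share is raised in that library, and the transfer libraries of young bone differ most among themselves.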

How the data were processed

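Poly(A)-selected RNA of MLO-Y4 cells and mouse bone was sequenced (labels' protocols). Values are FPKM as deposited, in 4 tables. HTSeq and mm10 appear in the submitters' processing notes without a role, and no source used here states what computed the FPKM. Only 23.2% to 46.5% of low values came out as whole fragments (tolerance 0.1), so no counts were recovered and depth is an estimate.

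limma 3.58.1 (R 4.3.3, trended prior) was run on log2(FPKM + 1) for genes averaging at least 1 FPKM across a fit's libraries, with Benjamini-Hochberg adjustment over every gene tested and a threshold of 0.05. This scale understates fold changes of low genes. All 4 groups of the oligomycin A experiment entered 1 fit, and tests were made within tables, in 6 comparisons. Per-library values are given for called members and for a set that spans class, strand and complex, with the highest and lowest mRNA and tRNA; other members are given by counts or where a sentence needed them, chosen after their values were seen. The members and gene lists were chosen with earlier results of these data known. Of 200 genes changed by 1 (log2) in simulated data, the fit found 90.0% for treated cells, 91.0% for recipients, 85.0% for their difference, 91.0% for the vehicle pair (11902 genes each), 92.5% for ADP (11604 genes) and 0% for young bone (16438 genes). Noise in the simulated data was drawn gene by gene, without shifts shared across genes. Positions and sequences come from GENCODE M21. Other pseudocounts, filters, scalings, variance priors, a replicate block and leaving out single libraries were tried.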

Additional observations from a re-analysis of the deposited data

Results flagged for a closer look

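The response of mt-Tl1 differed between treated cells and recipients of their supernatant by a test of the difference itself. The log2 fold change was -2.28 in treated cells and -1.15 in recipients, a difference of 1.13 (SE 0.11, limma adjusted p = 0.000504). All 3 libraries of each oligomycin A group lay below their vehicle libraries. The call held in 23 of 24 alternatives, with values of 0.98 to 1.18 and adjusted p from 0.000271 to 0.0658. It was lost when libraries were rescaled to one total without the mitochondrial genes. The groups also differ in exposure time, and the part of time was not tested. Removal of the drug from the supernatant is not stated, so carried-over drug and released substances cannot be told apart.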

How the results depend on the processing

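In treated cells 8 members were called. The count was 5 with no filter on low values, 5 when rescaled to one total, 5 when the total left out mt- genes, and 13 (10 lower, 3 higher) when rescaled to the 13 mt- mRNA genes, and 5 to 12 when single libraries were left out. In recipients 2 were called. The count was 4 with a pseudocount of 10, 1 with no filter, 5 with median-of-ratios scaling, 5 with quantile normalization and 9 (8 lower, 1 higher) when rescaled to the 13 mRNA genes, and 1 to 5 when single libraries were left out. For the difference of responses 1 was called, 0 when the total left out mt- genes, and 1 whichever library was left out. For vehicle supernatant recipients against vehicle-treated cells 1 was called. The count was 0 with no filter, rescaled to one total, with mt- genes left out of the total, with genes resembling satellites, nuclear rRNA or 7S RNA left out of it, with a constant variance prior and with only the libraries of the comparison, 2 with median-of-ratios scaling and 2 when rescaled to the 13 mRNA genes, and 0 to 3 when single libraries were left out. For ADP and young bone 0 were called under every alternative run. The sign of mt-Rnr1 in treated cells (-0.56) reversed to 0.67 without vehicle replicate 2 (range when single libraries were left out -1.23 to 0.67), and that of mt-Co1 reversed to 0.12 in treated cells and 0.11 in recipients when rescaled to the 13 mRNA genes. The cause of these changes was not tested.

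Over all genes the counts of calls were 241 to 2204 around 636 in treated cells, 7 to 1148 around 46 in recipients, 24 to 102 around 53 for their difference and 495 to 2209 around 1746 for the vehicle pair. In treated cells 69.5% of calls were higher, and 93.1% when rescaled to one total. Same-numbered libraries did not deviate together (correlations of -0.14 to 0.06 in the oligomycin A table, -0.01 to 0.04 for ADP and -0.23 to -0.08 for young bone). With a replicate block 8 members were called in treated cells, 7 of them the same, 2 in recipients, 1 for the difference, 1 for the vehicle pair and 0 for ADP and young bone. Depth limits the tRNA genes most, since 252 of 594 values rested on 0.5 to 10 estimated fragments.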
